A study of Mus musculus with 6 samples.

Results

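The trophectoderm is the outer epithelium of the blastocyst and the source of the trophoblast cells of the placenta, and the genes described here are 10 transcription factors that set up or maintain it: *Cdx2*, *Eomes*, *Gata2*, *Gata3*, *Tfap2a*, *Tfap2c*, *Elf5*, *Tead4*, *Hand1* and *Ascl2*. They were taken by name from the expression table, and the choice was made with earlier results of these data known. All 10 are listed among its 55774 genes. RNA had been sequenced from 6 libraries, each a pool of 10 wild type mouse blastocysts. The 2-cell embryos came from ICR mice and were cultured to the blastocyst in CZB medium with oviductal extracellular vesicles of human Fallopian tubes, small membrane-bound particles that carry RNA and protein. In the oEV-EMT group (3 libraries) the vesicles came from women with endometriosis. In the oEV-ctrl group (3 libraries) the donors had uterine fibroids by the sample labels, whereas the study's methods name cervical intraepithelial neoplasia. A library without vesicles was not analysed here, so the comparison is between both kinds of vesicle only. The sources used here do not say how many donors stand behind a library or whether the pools were separate cultures, so the p-values measure the spread between these libraries, part of which may be technical.

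In the outer cells of the embryo the Hippo kinases are inactive, and the co-activator YAP then enters the nucleus and works with TEAD4. This switches on *Cdx2* and *Gata3*, and CDX2 in turn holds down the pluripotency gene *Pou5f1*. *Eomes*, *Elf5* and *Tfap2c* keep trophoblast stem cells as such, and *Hand1* and *Ascl2* act later, in the giant cells and the ectoplacental cone of the developing placenta.

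The 10 factors spanned a wide range of levels, and none of those that could be tested passed the threshold between oEV-EMT and oEV-ctrl. Values are FPKM, fragments per kilobase of transcript and per 1000000 fragments, so that levels can be set beside each other between genes. Of the 10 genes, 9 reached 1 FPKM in at least 3 libraries and were tested with limma on log2(FPKM + 1), together with all 11924 genes that did so. *Hand1* did not reach that level. With Benjamini-Hochberg adjustment over all genes tested, 0 of the 9 passed at an adjusted p-value of 0.05, and neither did any other tested gene (0.0%), among which the smallest adjusted p-value was 0.0934 (limma). Without adjustment and without scaling between libraries, *Elf5* alone had a p-value of at most 0.05 (limma), 1 gene of 9. This held for 15.4% of all tested genes, which split into 12.8% higher and 2.55% lower in oEV-EMT. After median-of-ratios or upper quartile scaling *Eomes*, lower in oEV-EMT, took the place of *Elf5*, as given further below. No tested member had groups without overlap, against 18.1% of all tested genes that were higher in this way and 4.34% that were lower. Of the 9 genes, 6 had a positive and 3 a negative log2 fold change, where *Cdx2*, *Tfap2c* and *Tead4* turned negative and *Gata2* positive under at least 1 other scaling of the libraries. Since the median over all tested genes was itself 0.17, differences are also given relative to it, and 4 of the 9 lay above it and 5 below.

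The libraries differed in depth and in overall scale. Read totals are not given, but the most frequent low value in genes with a single transcript, which follows the worth of a fragment, lay between 0.0270 and 0.0558 FPKM in a transcript of 1 kilobase, a range of 2.07 times. By this measure oEV-EMT 1 was the deepest and oEV-ctrl 1 the shallowest library. The sum of FPKM lay between 1293175 and 1551567, and the largest entry of a library held from 15.3% of it, in oEV-EMT 1, to 31.5%, in oEV-ctrl 1. Defining genes of the cumulus and oviduct cells that could come along with embryos were at or near 0, with 0 of 15 tested, 7 at 0 in every library and none above 0.344 FPKM. Their summed level was 0.450 to 0.798 FPKM in oEV-EMT and 0.299 to 0.421 FPKM in oEV-ctrl. The keratins *Krt8* and *Krt18* of the trophectoderm were among the abundant genes, with 1185 and 2573 FPKM on average over the 6 libraries.

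Genomic sequence upstream of the start is shown for the members with the highest and the lowest log2 fold change, *Elf5* and *Eomes*, and for *Cdx2*, the factor the lineage is best known for. The bases run 5′ to 3′ on the strand of the gene and end before the exon that begins at the start concerned, which for *Elf5* is an inner start within the gene. Capitals mark CpG dinucleotides, the sites of DNA methylation. They are shown because *Elf5* is a textbook case of a lineage gene whose promoter is methylated in embryonic stem cells and free of methylation in trophoblast stem cells. Methylation was not measured here. The sequences are RefSeq's on GRCm38.p6, and 7 of the 10 genes have an entry.
Elf5, chr2:103423818-103424061, plus strand, before the inner of both listed starts: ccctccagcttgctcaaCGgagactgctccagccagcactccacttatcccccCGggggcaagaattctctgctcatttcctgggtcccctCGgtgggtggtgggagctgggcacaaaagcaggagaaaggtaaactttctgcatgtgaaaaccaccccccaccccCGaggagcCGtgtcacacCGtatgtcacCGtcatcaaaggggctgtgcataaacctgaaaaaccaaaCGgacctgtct
Eomes, chr9:118477939-118478188, plus strand: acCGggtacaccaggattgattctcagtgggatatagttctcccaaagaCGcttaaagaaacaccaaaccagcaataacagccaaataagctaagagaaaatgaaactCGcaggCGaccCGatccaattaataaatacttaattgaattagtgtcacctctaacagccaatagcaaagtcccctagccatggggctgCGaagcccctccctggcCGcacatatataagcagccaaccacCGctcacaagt
Cdx2, chr5:147307271-147307499, minus strand: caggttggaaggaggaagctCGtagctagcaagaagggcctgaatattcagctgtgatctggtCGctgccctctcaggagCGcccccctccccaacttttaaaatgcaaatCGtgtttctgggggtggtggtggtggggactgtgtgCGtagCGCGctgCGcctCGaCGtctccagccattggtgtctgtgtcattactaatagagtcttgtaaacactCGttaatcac
The *Elf5* stretch holds 8 CpG in 244 bases, the *Eomes* stretch 8 in 250 and the *Cdx2* stretch 11 in 229. In windows from 250 bases before to 50 after a start, the median over 32851 windows of all genes was 7 CpG. Both windows of *Gata2* held more, with 32 and 29. *Ascl2* had 23, *Gata3* 22 and *Cdx2* 18. The outer start of *Elf5* had the fewest of the members, with 3, and its inner start had 10. The sequence bound by TFAP2 factors, GCCNNNGGC on either strand, occurred in a window of *Cdx2*, *Gata2* and *Gata3*, and in 16.6% of all windows. The TEAD core GGAATG was found in windows of *Elf5* and *Gata2* and in 14.7% of all. No member window held the GATA core AGATAA, which 11.2% of all windows had, nor the CDX core TTTATNG, which 10.9% had.

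*Gata3* was the most abundant member. It encodes a zinc finger factor that acts beside CDX2 in the outer cells, and lies on chromosome 2 from 9857078 to 9890034 of GRCm38. Its FPKM was 107, 50.8 and 44.3 in oEV-EMT and 86.7, 70.4 and 68.9 in oEV-ctrl. The oEV-EMT values lay on both sides of the oEV-ctrl values, with oEV-EMT 1 above them all and the other two libraries below. Between groups the log2 fold change was -0.26 with a 95% interval of -0.95 to 0.43 (adjusted p = 0.711, limma). The within-group SD of *Gata3*, 0.49 on the log2 scale, was wider than in 87.2% of tested genes. *Gata3* overlaps 3 other annotated genes. The protocol as described does not mark strand, so its reads cannot be told apart from those of *Gm13256* and *4930412O13Rik* on the opposite strand, both with under 1 FPKM on average. The other, *9230102O04Rik*, lies on the same strand and reached 3.36 FPKM.
*Gata2*, its closest relative in the trophectoderm, was at a much lower level. The FPKM of *Gata2* was 10.5, 6.51 and 4.95 in oEV-EMT and 9.47, 4.80 and 8.07 in oEV-ctrl. The groups overlapped over nearly their whole range, and the mean was 7.33 ± 2.88 (SD, n = 3) against 7.45 ± 2.39 (SD, n = 3). Its log2 fold change was -0.03, with an interval of -0.72 to 0.65. *Gata2* lies on chromosome 6 from 88193891 to 88207032.

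**Figure D1:**
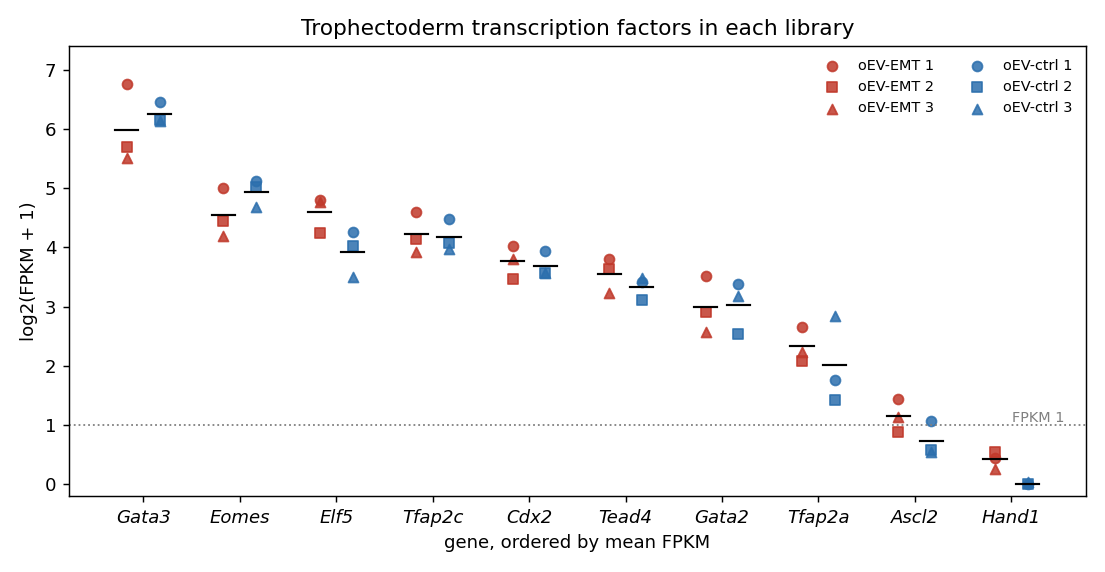
Levels of the 10 trophectoderm transcription factors as log2(FPKM + 1) in each library, with oEV-EMT in red and oEV-ctrl in blue, the symbol giving the replicate number and the black bar the mean of a group. The groups overlap in 9 of the 10 genes, and *Hand1*, below 1 FPKM throughout, is the exception.

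*Cdx2* (chromosome 5, 147300805 to 147307270) encodes the homeodomain factor that maintains the trophectoderm. Its FPKM was 15.2, 10.1 and 13.0 in oEV-EMT and 14.4, 10.8 and 10.8 in oEV-ctrl. High and low libraries were found in both groups. For *Cdx2* the log2 fold change was 0.07 with an interval of -0.44 to 0.59 (adjusted p = 0.897, limma), so a change of 1 on the log2 scale in either direction lay outside it. In the fit without scaling, such a change lay outside the interval in 7 of the 9 tested genes, the others being *Elf5* and *Tfap2a*. It was only just outside for *Eomes* and *Gata3*, whose intervals began at -0.96 and -0.95. After upper quartile scaling their log2 fold changes were further below 0, at -0.65 (standard error 0.26) and -0.53 (standard error 0.31). A change of 1 is therefore not excluded for these genes under other scalings. Among the 7 is *Ascl2*, whose interval is narrowed by adding 1 to values near 1 FPKM and so does not exclude such a change in FPKM itself.
*Tead4*, the partner of YAP upstream of *Cdx2*, is on chromosome 6 from 128224288 to 128300823. It had 12.9, 11.4 and 8.40 FPKM in oEV-EMT and 9.64, 7.61 and 10.2 FPKM in oEV-ctrl. Both of the highest values were in oEV-EMT, and the third oEV-EMT library lay among the oEV-ctrl values. *Tead4* had a log2 fold change of 0.22 (interval -0.30 to 0.74), or 0.05 relative to all genes. *Cdx2* and *Tead4* had among the narrowest spreads of the members, with within-group SDs of 0.25 each on the log2 scale, against a median of 0.29 over all tested genes.

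The T-box factor EOMES is required for trophoblast to develop beyond the blastocyst. *Eomes* spans 118478212 to 118486132 of chromosome 9. Its FPKM was 31.2, 20.8 and 17.3 in oEV-EMT and 33.8, 31.5 and 24.7 in oEV-ctrl. The lower values were those of oEV-EMT 2 and 3, while oEV-EMT 1 lay within the range of oEV-ctrl. *Eomes* had the lowest log2 fold change of the 9 genes, -0.39 with a standard error of 0.26 (adjusted p = 0.486, limma), and only 6.11% of all tested genes had a lower one. Relative to the median of all genes it was -0.56. An antisense gene that overlaps its end, *Gm33460*, was at 1.80 FPKM on average. With single libraries left out, the log2 fold change of *Eomes* ranged from -0.62 to -0.21 and that of *Gata3* from -0.65 to -0.02. The lowest values were those without oEV-EMT 1, where the groups of both genes no longer overlapped, and the values nearest to 0 were those without oEV-EMT 3.
*Elf5*, an ETS factor that links *Cdx2* and *Eomes* in a circuit of trophoblast stem cells, lies on chromosome 2 from 103411688 to 103450989. Its FPKM was 26.7, 17.9 and 26.2 in oEV-EMT and 18.2, 15.3 and 10.3 in oEV-ctrl. The groups overlapped by a single pair of libraries, oEV-EMT 2 and oEV-ctrl 1, whose values were 17.9 and 18.2. The mean was 23.6 ± 4.99 (SD, n = 3) against 14.6 ± 3.96 (SD, n = 3). On the log2 scale the difference of *Elf5* was 0.67 (standard error 0.26, interval 0.08 to 1.25) and higher than in 91.1% of tested genes. Its unadjusted p-value was 0.0288 and its adjusted p-value 0.270 (limma), and the exact permutation test gave p = 0.2, where 3 libraries against 3 cannot give less than 0.1. With single libraries left out the log2 fold change lay between 0.46 and 0.85.

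**Figure D2:**
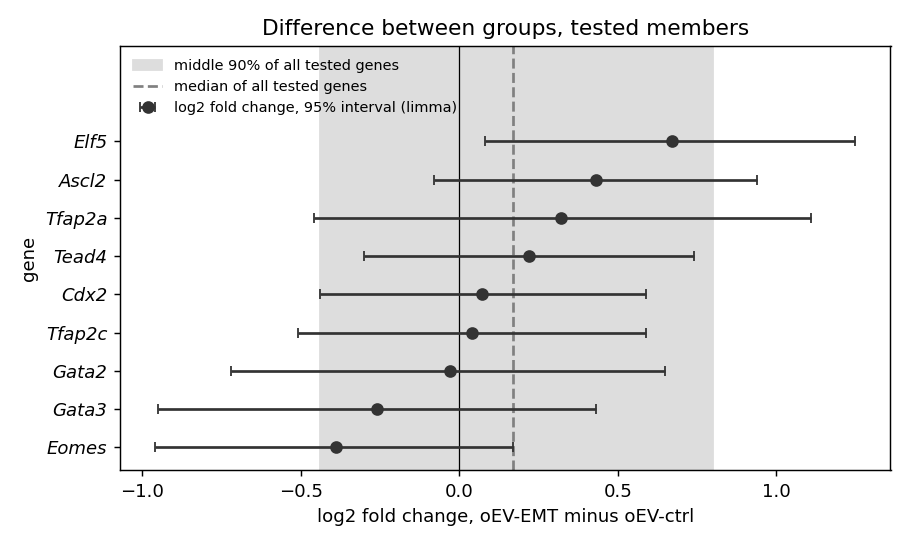
Log2 fold change between oEV-EMT and oEV-ctrl of the 9 tested members, as points with 95% intervals from limma. The grey band holds the middle 90% of all tested genes, from -0.44 to 0.80, around their median of 0.17, and all 9 points lie within it.

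The AP-2 factors act from the cleavage stages on. *Tfap2c* (chromosome 2, 172549593 to 172558622) had 23.1, 16.6 and 14.2 FPKM in oEV-EMT and 21.4, 15.9 and 14.7 FPKM in oEV-ctrl. The values of both groups covered nearly the same range, and the log2 fold change was 0.04 with an interval of -0.51 to 0.59. *Tfap2a* (chromosome 13, 40715302 to 40738376) was at a lower level and varied the most of the members. It had 5.33, 3.26 and 3.71 FPKM in oEV-EMT and 2.40, 1.67 and 6.16 FPKM in oEV-ctrl. Both the lowest and the highest value of *Tfap2a* were in oEV-ctrl. Its within-group SD of 0.56 on the log2 scale was above that of 91.7% of tested genes, and the interval of its log2 fold change reached from -0.46 to 1.11. Stretches of 50 bases that make up 10.2% of those in the *Tfap2a* transcripts also occur in other listed genes. Of these genes, 3 overlap it on the opposite strand. Its level is uncertain for this reason, and the share of stretches does not give the size of the error. The highest of the 3 overlapping genes, *Gm26688*, had 1.27 ± 0.595 FPKM in oEV-EMT and 1.22 ± 0.499 FPKM in oEV-ctrl (SD, n = 3 each). In each of the other members the shared portion was at most 2.22%.

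The factors of later trophoblast were the lowest of the 10. *Ascl2*, an imprinted basic helix-loop-helix gene of the ectoplacental cone, lies on chromosome 7 from 142966829 to 142969264. It had 1.73, 0.854 and 1.21 FPKM in oEV-EMT and 1.09, 0.493 and 0.467 FPKM in oEV-ctrl, with oEV-ctrl 1 between the oEV-EMT values. It passed the filter with 3 libraries at 1 FPKM or more, and only 0.948% of tested genes had a lower mean. *Ascl2* had a log2 fold change of 0.43 with an interval of -0.08 to 0.94 (adjusted p = 0.393, limma), on a scale that understates the change of low genes. With a pseudocount of 0.1 in place of 1 it was 0.84, with a standard error of 0.45.
*Hand1*, a basic helix-loop-helix factor of trophoblast giant cells, lies on chromosome 11 from 57828705 to 57832818 and was the only member without overlap between the groups. Its FPKM was 0.363, 0.464 and 0.201 in oEV-EMT. In oEV-ctrl it was listed at 0 in 2 libraries and at 0.0243 in oEV-ctrl 3. Every oEV-EMT library thus had a higher value than the oEV-ctrl libraries, for which the exact permutation test gave p = 0.1, its lower limit here. Among all genes above 0 in some library that, like *Hand1*, failed the filter, 5.37% had all oEV-EMT values above all oEV-ctrl values, and among tested genes 18.1% did. Genes at 0 in any oEV-EMT library cannot separate in this direction. The 5.37% is thus lowered by construction and is not matched to the level of *Hand1*. Expressed as multiples of the most frequent low value of each library, the *Hand1* values were 25.6, 19.1 and 9.67 in oEV-EMT and 1.51 in oEV-ctrl 3. They therefore stood above a single step in every oEV-EMT library. The shallowest library, oEV-ctrl 1, was one of those at 0, and the depth of oEV-ctrl 3, where 1.51 steps were seen, was second only to that of oEV-EMT 1. When no filter was applied and 31842 genes were fitted, *Hand1* had an unadjusted p-value of 0.00413 and an adjusted p-value of 0.609 (limma).

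By mean FPKM over the 6 libraries, the order was *Gata3* with 71.3, *Eomes* with 26.5, *Elf5* with 19.1, *Tfap2c* with 17.6, *Cdx2* with 12.4, *Tead4* with 10.0, *Gata2* with 7.39, *Tfap2a* with 3.76, *Ascl2* with 0.974 and *Hand1* with 0.175. *Gata3* lay above *Eomes*, and *Ascl2* above *Hand1*, without overlap between any libraries. The order of *Elf5* and *Tfap2c* followed the groups. *Elf5* was the higher of the pair in the 3 oEV-EMT libraries and the lower in the 3 oEV-ctrl libraries, a split seen after the values and not tested. *Eomes* exceeded *Elf5*, and *Cdx2* exceeded *Tead4*, in 5 of 6 libraries. The remaining neighbours kept their order within each of the 6 libraries, although their ranges overlapped between libraries.

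Among the tested members, 7 of 9 had their highest value in library oEV-EMT 1, whereas 37.4% of all tested genes did. On the log2 scale, the median deviation of the 9 genes from their own means was 0.49 in oEV-EMT 1, and it was 0.17 over all tested genes there. In oEV-ctrl 1 the median deviation was 0.22 against -0.13. Relative to all genes, the factors were thus high in a library of each group, by 0.32 in oEV-EMT 1 and 0.34 in oEV-ctrl 1, and below in the other 4, by -0.20 to -0.07. These are the deepest and the shallowest library, and the part of depth in the pattern was not tested. *Eomes*, *Gata2*, *Gata3* and *Tfap2c* had positive deviations in both of these libraries and negative ones in oEV-EMT 2 and 3. In oEV-ctrl 2 and 3 they were mixed, with *Eomes* at 0.40 and *Gata3* at 0.16 in oEV-ctrl 2 and *Gata2* at 0.16 in oEV-ctrl 3. *Elf5* departed from it, with 0.51 in oEV-EMT 3 and -0.77 in oEV-ctrl 3, and so did *Tfap2a*, with 0.67 in oEV-ctrl 3. In pools of whole blastocysts, a smaller number of trophectoderm cells and less RNA per cell cannot be told apart.

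**Figure D3:**
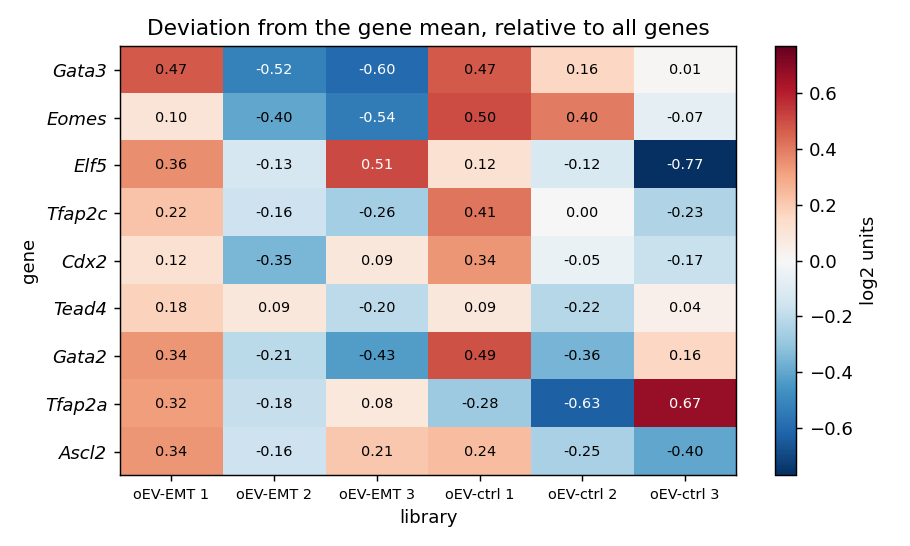
Deviation of each tested member (rows, by mean FPKM) from its own mean over the 6 libraries (columns), in log2 units, after subtracting the median deviation of all tested genes in that library. Libraries oEV-EMT 1 and oEV-ctrl 1 are mostly red, oEV-EMT 2 is mostly blue, and *Elf5* and *Tfap2a* have the strongest single colours.

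Relatives of the members from the same protein families were also measured. Of 18 such genes, 8 were tested with limma, of which 0 passed the adjusted threshold, and 2 had an unadjusted p of at most 0.05 and were higher in oEV-EMT without overlap, or 25.0%, beside 12.8% and 18.1% of all tested genes by these measures. *Elf3*, an ETS relative of *Elf5*, was the most abundant with 116 FPKM on average. *Gata4*, a GATA factor of primitive endoderm, had 8.79 ± 2.19 FPKM in oEV-EMT and 4.48 ± 0.517 FPKM in oEV-ctrl (SD, n = 3 each), with a log2 fold change of 0.82 and an adjusted p-value of 0.174 (limma). *Gata1*, better known from blood cells, had 2.32 ± 0.863 against 1.10 ± 0.278 FPKM (SD, n = 3 each; adjusted p = 0.267, limma). *Gata6* was higher in level than *Gata2*, with 20.2 FPKM on average, and its groups overlapped, as did those of *Tead1*, *Tead2*, *Cdx1* and *Tbx3*. *Gata5* and *Hand2* were listed at 0 in all 6 libraries.

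Upstream of the members, 14 of 18 genes of the Hippo pathway and Notch signalling and their partners were tested with limma. Of these, 0 passed with adjustment and 1 without, beside 15.4% of all tested genes without adjustment. The list median was -0.02 on the log2 scale, which is -0.19 relative to all genes. *Klf5*, which promotes the trophectoderm, was the most abundant, with 97.8 ± 25.7 FPKM in oEV-EMT and 117 ± 11.4 FPKM in oEV-ctrl (SD, n = 3 each). The groups overlapped in *Yap1*, in its homologue *Wwtr1* and in *Sbno1*, which had 16.4 FPKM on average. *Amotl2*, an angiomotin that binds YAP, was the only tested one without overlap, at 7.53 ± 2.87 against 4.09 ± 0.311 FPKM (SD, n = 3 each), with an adjusted p-value of 0.272 (limma). This is 7.14% of the tested genes of the list, beside 18.1% of all tested genes that were higher without overlap. *Amot*, another angiomotin, had a log2 fold change of -0.68, with 0.195 to 9.25 FPKM in oEV-EMT and 4.83 to 5.41 FPKM in oEV-ctrl. *Sav1*, a Hippo scaffold gene that did not pass the filter, was lower without overlap, with 0.599 to 0.666 FPKM in oEV-EMT and 0.730 to 1.66 FPKM in oEV-ctrl. Among all tested genes, which do not include *Sav1*, 4.34% were lower in this way. The share among genes that failed the filter was not computed for this direction.
Downstream, all 22 effector genes of the epithelium were tested with limma, and 0 passed with adjustment and 7 without, 6 of them higher in oEV-EMT, where 15.4% of all tested genes passed without adjustment and 12.8% were higher. Their median was 0.17, the same as over all genes. Without overlap, 5 were higher and 1 was lower in oEV-EMT, or 22.7% higher, beside 18.1% of all tested genes. The higher ones were *Cldn4*, *Ocln*, *Krt19*, *Ptges* and the glucose transporter gene *Slc2a1*. *Cldn4*, a claudin of tight junctions, had the largest log2 fold change of these, 1.26 (standard error 0.30, adjusted p = 0.157, limma), from 125 ± 34.5 to 309.7 ± 124 FPKM (SD, n = 3 each). *Tspan8* was lower, with 1270.2 ± 147 against 1816 ± 464 FPKM (SD, n = 3 each; adjusted p = 0.309, limma). The groups overlapped in *Krt18* and in *Id2*, which is enriched in outer cells.
Of 22 genes of trophoblast stem cells and placenta, 10 were tested, with a median of -0.21 relative to all genes, and 8 were under the level of all genes. With limma, 0 passed with adjustment and 1 of the 10 without, beside 15.4% of all tested genes without adjustment. *Plac1*, with 457 FPKM on average, was the most abundant, and the groups overlapped in it, in *Zfp42*, in *Ets2* and in *Fgfr2*, the receptor for the FGF4 signal from the inner cell mass. *Bmp4* was higher without overlap (log2 fold change 0.68, adjusted p = 0.221, limma), 10.0% of the tested genes of the list, beside 18.1% of all tested genes. The giant cell gene *Prl3d1* was listed at 0 in every library.

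Genes of the other cells of the blastocyst were read from the same fit, and 0 of them passed the adjusted threshold of limma. Without adjustment, 7 of the inner cell mass and epiblast and 2 of the primitive endoderm passed, all higher in oEV-EMT, beside 12.8% of all tested genes. These are 46.7% of the 15 and 18.2% of the 11 tested genes of these lists. Of 15 tested genes of the inner cell mass and epiblast, 7 were higher in oEV-EMT without overlap, 46.7% of them beside 18.1% of all tested genes. They were *Utf1*, *Nanog*, *Gdf3*, *Fgf4*, *Pou5f1*, *Morc1* and *Bmp4*, the last of which is also in the placental list, with log2 fold changes from 0.68 to 1.83 and adjusted p-values of 0.101 or more (limma). The median of this list was 0.55, or 0.38 relative to all genes, while that of the 9 trophectoderm factors was 0.07, or -0.10 relative to all genes. The lists were chosen with earlier results of these data known, so the shares and medians describe them and test nothing. The groups overlapped in the abundant *Dppa3* and *Spp1* and in *Sox2*. Of these, *Sox2* and *Dppa3* had negative log2 fold changes, -0.32 (standard error 0.29) and -0.11 (standard error 0.65), and *Spp1* had 0.55 (standard error 0.35). With the median log2 fold change of all tested genes as reference, 10 of the 15 had a larger value and 5 a smaller one. The summed FPKM of the list was 906 to 1929.9 in oEV-EMT and 756 to 1578 in oEV-ctrl, and that of the 10 trophectoderm factors was 133 to 234 and 154 to 197. Of 11 tested genes of the primitive endoderm, 2 were higher without overlap, *Gata4* and *Sox7*, or 18.2% beside 18.1% of all tested genes. The 2 that passed without adjustment were *Gata4* and *Sox17*. The median of the primitive endoderm list was 0.15 relative to all genes. Its most abundant gene was *Sparc*, with 83.5 FPKM on average. The part of the cell numbers of these lineages in the differences was not tested.

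**Figure D4:**
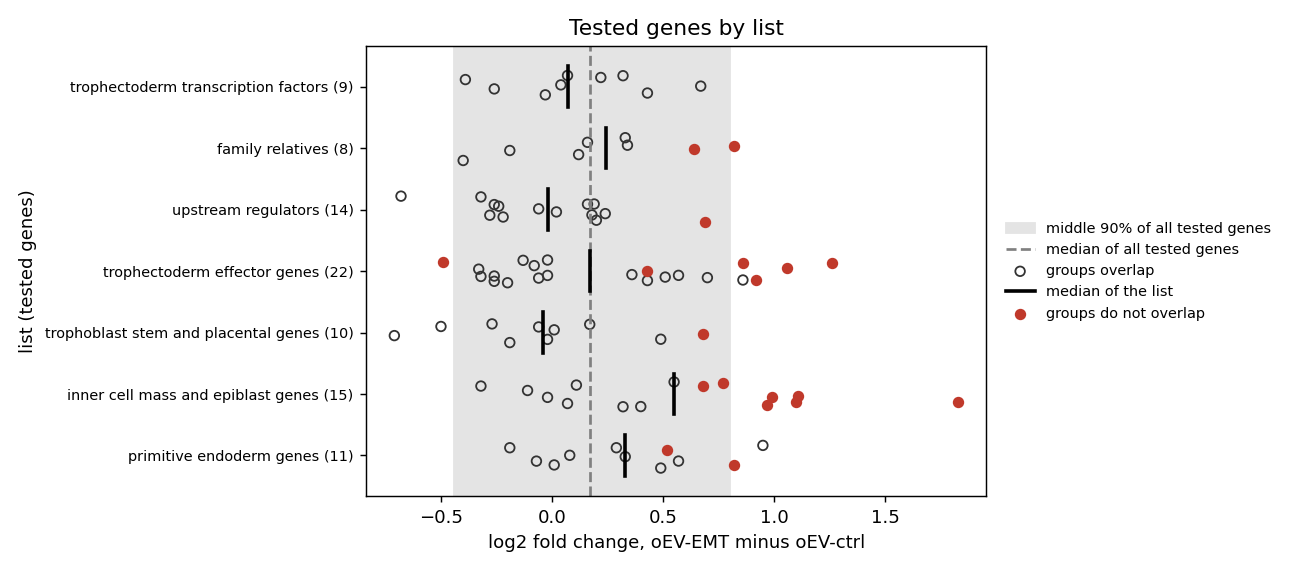
Log2 fold change (oEV-EMT minus oEV-ctrl) of the tested genes of each list, with the number of tested genes in brackets, filled red where the groups do not overlap, and the list median as a black bar. All 9 trophectoderm factors are open circles, and 7 of the 15 inner cell mass and epiblast genes are filled and lie to the right.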

How the data were processed

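Expression was analysed in 6 libraries of pooled blastocysts. The authors selected polyadenylated RNA, aligned reads to the genome (mm10 by the submitters' processing notes), assembled transcripts with StringTie and deposited 1 value per gene and library. The methods speak of TPM, but the deposited values sum to more than 1000000 and were taken as FPKM, relative to gene length and library size. The aligner and the versions are not given in the sources used here. Count models are not valid for FPKM and were not used.

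Of 55774 rows, 55487 have an Ensembl identifier, named through GENCODE M21 (GRCm38). Genes with at least 1 FPKM in at least 3 libraries were fitted as log2(FPKM + 1) with limma 3.58.1 in R 4.3.3 (trended, robust variance), with Benjamini-Hochberg adjustment over all tested genes, a threshold of 0.05 and no scaling between libraries. The procedure was tested on simulated data. For single values, two-sided exact permutation tests were used. The low step is the mode of FPKM times length over genes with 1 transcript longer than 1000 bases. It gives relative depth only, so no counting interval was computed. Shared stretches of 50 bases were searched on both strands of the GENCODE M21 transcripts. Promoter motifs were searched on both strands.

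The members and lists were chosen with earlier results of these data known. Named genes were all 10 members and, per list, the 3 of highest mean FPKM and the one of smallest p in each direction. Family relatives of at least 1 FPKM on average and some of the genes overlapping a member were also named. Genes without overlap between groups were named after their values were seen, as were *Krt8*, *Yap1*, *Amot*, *Gata5*, *Hand2* and *Prl3d1*. Alternatives covered scaling, filter, pseudocount, variance model, each library left out in turn and the replicate number as a block. Summaries and plots used Python 3.11.15 and matplotlib 3.10.9.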

Additional observations from a re-analysis of the deposited data

How the results depend on the processing

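Under all 14 alternatives, 0 of the trophectoderm factors passed at an adjusted p-value of 0.05. A filter at a mean of at least 5 FPKM leaves out *Ascl2* and *Tfap2a*, and *Hand1* was fitted only with no filter on low values. Of 124 values for single members under these alternatives, 110 kept their direction, and *Elf5*, *Eomes*, *Gata3*, *Ascl2* and *Tfap2a* kept it throughout. The log2 fold change of *Elf5* lay between 0.42 and 0.85 and its adjusted p-value between 0.193 and 0.674. Its unadjusted p-value was 0.0156 after scaling to a total of 1000000, 0.118 after median-of-ratios and 0.178 after upper quartile scaling (limma). For *Eomes* these were 0.284, 0.0371 and 0.0296 (limma), so which member passed without adjustment, and in which direction, depended on the scaling. The sign of the values near 0 depended on scaling: after median-of-ratios scaling *Cdx2* was at -0.11 and *Tfap2c* at -0.15, after upper quartile scaling *Cdx2* was at -0.17, *Tfap2c* at -0.21 and *Tead4* at -0.02, and after scaling to a total of 1000000 *Gata2* was at 0.05. With 1 library left out, *Cdx2* ranged from -0.05 to 0.22, *Gata2* from -0.29 to 0.18 and *Tfap2c* from -0.14 to 0.19. The median of the members was -0.17 after upper quartile scaling, which also moved that of all genes to -0.04, and relative to all genes it was 0.12 with no filter. It ranged from -0.05 to 0.20, or from -0.19 to 0.05 relative to all genes, with 1 library left out.

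The number of members without overlap and higher in oEV-EMT was 2 after scaling to a total of 1000000, where *Elf5* joined *Hand1*. After median-of-ratios or upper quartile scaling it was 1, *Hand1* alone. With 1 library left out it ranged from 1 to 3, and the number lower ranged from 0 to 2. *Elf5* and *Ascl2* were added without oEV-EMT 2 or without oEV-ctrl 1, *Tead4* without oEV-EMT 3 and *Tfap2a* without oEV-ctrl 3. Lower without overlap were *Eomes* and *Gata3* without oEV-EMT 1, and *Eomes* without oEV-ctrl 3. Fewer libraries make separation easier by construction.

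The number of all tested genes called ranged from 0 to 17 with 1 library left out, and was 21 with the replicate number as a block. Same-numbered libraries did not deviate together, with correlations of 0.119, -0.0442 and 0.0388 over tested genes, and 2 of 6 libraries correlated best with their own number, so the numbers were not taken as pairs. The block added 0 members.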

Other observations

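Ratios between genes within a library do not depend on the scaling between libraries. The pairs given here were chosen after the values were seen, and no test is given for them. *Elf5* over *Eomes* was 0.858, 0.858 and 1.52 in oEV-EMT and 0.538, 0.485 and 0.420 in oEV-ctrl, without overlap. *Elf5* over *Cdx2* was 1.76, 1.77 and 2.02 against 1.26, 1.42 and 0.954, also without overlap. The ratios of both family pairs overlapped, with 7.80 to 10.1 against 8.53 to 14.7 for *Gata3* over *Gata2* and 3.83 to 5.10 against 2.39 to 9.51 for *Tfap2c* over *Tfap2a*. *Pou5f1* over *Cdx2*, the inner against the outer lineage, was 1.57, 2.36 and 1.19 in oEV-EMT and 0.726, 0.643 and 1.26 in oEV-ctrl, so that the highest oEV-ctrl library lay just above the lowest oEV-EMT library.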
